A study of Mus musculus with 12 samples.

Results

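The 9 genes Fscn1, Ccr7, Ccl22, Ccl17, Cd40, Cd83, Relb, Traf1 and Marcksl1 are usually read together as signs of dendritic cell maturation, and they were followed here in bone marrow-derived macrophages (BMDMs) with and without cGAS, the cytosolic sensor of double-stranded DNA. They were chosen by symbol, from earlier results of these data, so the groups in which they stand out may have helped to choose them. All 9 symbols are present among the 38739 symbols of the expression table, and 7 of them were among the 11887 genes with enough signal to be tested. Ccr7 and Ccl17 were too low in all conditions. Fscn1 reached the minimum only through the LPS-treated cGAS-/- samples, so its presence among the tested genes already implies a difference. Likewise Ccl22 reached it only with the WT UT samples. In these macrophages the 9 genes did not move as one programme: Marcksl1, Traf1 and Cd40 rose with LPS, Cd83 fell, Fscn1 was high in 1 condition only, and the chemokine and chemokine receptor genes stayed near 0 TPM, the length-corrected unit of transcript abundance.

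RNA was sequenced from BMDMs of wild-type (WT) C57BL/6J mice and of cGAS knockout (cGAS-/-) mice on that background, in which the gene is missing from every cell, each left in medium (untreated, UT) or given lipopolysaccharide (LPS) of E. coli 026:B6. Each of these 4 conditions (WT UT and WT LPS, then cGAS-/- UT with its LPS counterpart) had 3 samples. The labels give LPS as 100 ng/mL for 1 h, whereas the methods give 150 ng/mL for 24 h, and the time of exposure is therefore not settled. The methods describe male mice of 8 weeks. A figure legend of the study describes the triplicates as technical, so the p-values below measure a spread between samples that may be smaller than that between animals. The labels call the cells macrophages, although their extraction step names neutrophils.

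The value of a gene is its TPM averaged over its transcripts, which keeps a gene's own comparisons but lowers genes with many listed transcripts, so levels are not ranked between genes. The sums of the values were between 447189 and 503156 in 11 samples and 709802 in WT LPS replicate 3. Genes above 0 TPM numbered 12261 in that sample and 12787 in WT LPS replicate 1, against 15378 to 17573 in the other 10. Cgas ranged from 1.19 to 3.25 TPM in the 6 WT samples and from 0.0703 to 0.291 TPM in the 6 cGAS-/- samples, without overlap. The number of reads is unknown. In a bulk sample, fewer cells of a kind and less RNA per cell cannot be told apart.

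When a dendritic cell meets a microbial product, it stops sampling its surroundings, moves to the lymph node and presents antigen to T cells. CCR7 guides the cell along CCL19 and CCL21, fascin (Fscn1) bundles the actin of its long processes, and MARCKSL1 ties actin to the membrane. CD40 receives the signal of helper T cells, TRAF1 and RelB belong to the NF-κB signalling that CD40 and related receptors use, CD83 stabilises MHC class II at the surface, and CCL17 and CCL22 attract T cells that carry CCR4. Macrophages share much of the NF-κB part of this response, while the migratory part is known mainly from dendritic cells.

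The sequences just before the starts of Fscn1, Traf1 and Marcksl1 are shown because these members were higher with LPS in at least 1 genotype and have an entry among the RefSeq promoters of GRCm38.p6. An entry was held for 5 of the 9 members, which adds Ccl22 and Ccl17, while Ccr7, Cd40, Cd83 and Relb had none. Each line gives the 250 bases before the start on the gene's own strand, at chr5:142960105-142960354 on the plus strand for Fscn1, chr2:34961773-34962022 on the minus strand for Traf1 and chr4:129513331-129513580 on the plus strand for Marcksl1. Capitals mark the matches to the motifs searched.
Fscn1: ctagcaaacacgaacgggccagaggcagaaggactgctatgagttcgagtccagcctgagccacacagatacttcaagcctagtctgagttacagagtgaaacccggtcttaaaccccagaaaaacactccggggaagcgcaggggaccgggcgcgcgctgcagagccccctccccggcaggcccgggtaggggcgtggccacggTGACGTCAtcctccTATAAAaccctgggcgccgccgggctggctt
Traf1: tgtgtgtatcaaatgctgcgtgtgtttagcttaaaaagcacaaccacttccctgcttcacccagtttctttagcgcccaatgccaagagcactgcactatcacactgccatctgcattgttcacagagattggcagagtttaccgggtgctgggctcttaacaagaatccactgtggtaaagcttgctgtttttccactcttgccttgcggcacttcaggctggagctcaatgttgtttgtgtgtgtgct
Marcksl1: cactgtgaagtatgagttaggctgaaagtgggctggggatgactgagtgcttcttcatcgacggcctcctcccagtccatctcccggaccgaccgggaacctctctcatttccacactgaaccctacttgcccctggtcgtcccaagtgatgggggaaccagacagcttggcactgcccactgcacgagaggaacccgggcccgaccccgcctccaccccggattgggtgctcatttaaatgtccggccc
Both strands of the 5 promoters, 300 bases each with the 50 after the start, were searched for the cAMP response element TGACGTCA, the AP-1 motif in its forms TGACTCA and TGAGTCA, the box TATAAA, and the κB consensus. Fscn1 was the only one of the 5 with a match. It held the cAMP response element from 45 to 38 bases before the start, the same letters on both strands, and TATAAA from 31 to 26 bases before the start, and these matches did not overlap. Among 32851 promoters of this length, 1.79% held the cAMP response element, 13.6% TATAAA, 5.2% the AP-1 motif and 8.46% the κB consensus. A match describes letters and not a site in use.

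Ccr7, Ccl22 and Ccl17, the migration receptor and the T cell chemokines, were at or near 0 TPM in all conditions. Ccr7 (GRCm39 chr11:99035022-99045911, minus strand) lay at 0.478, 0.372 and 0.357 TPM in the 3 WT UT samples, at 0.435, 0.302 and 0 in WT LPS, at 0.168, 0.613 and 0.139 in cGAS-/- UT, and at 0.385, 0.418 and 0.399 in cGAS-/- LPS. The 4 conditions overlapped throughout, and neither LPS nor genotype set its samples apart in any comparison. Ccl17 (chr8:95534358-95538664, plus strand) was listed at 0 in 11 samples and at 1.05 TPM in WT UT replicate 2. Ccl22 (chr8:95471226-95478327, plus strand) lay at 0.663, 1.18 and 0.473 TPM in WT UT and at 0.480, 0.399 and 0.228 in WT LPS. It lay at 0.0741, 0.270 and 0.428 in cGAS-/- UT and at 0.297, 0.738 and 0.726 in cGAS-/- LPS. With LPS the groups overlapped in both genotypes, and the Ccl22 difference of WT LPS from WT UT was -0.36 on the log2 scale of TPM + 1 (standard error, SE 0.20), given without a p because WT UT is the group that let the gene into the test. It was -0.20 without WT UT replicate 2.

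The genes around these chemokines were equally quiet. Cx3cl1, which lies between Ccl22 and Ccl17 on chromosome 8 (chr8:95498637-95509055), stayed at or under 0.442 TPM in every sample. Ccl19 and Ccl21a, the ligands of CCR7, were listed at 0 in all 12 samples, and Ccr4, the receptor of CCL17 and CCL22, was at most 0.0307 TPM. Among the 8 genes of this list, only Cx3cr1, the receptor of CX3CL1, was high enough to be tested. It was 6.28 ± 0.38 TPM in WT UT and 17.8 ± 0.61 in cGAS-/- UT (SD, n = 3), a difference of 1.36 on the log2 scale (limma over all genes, SE 0.21, adjusted p = 0.00645). LPS lowered Cx3cr1 in WT cells to 0.415 ± 0.40 TPM, a log2 difference of -2.40 (limma, SE 0.21, adjusted p = 2.42e-05).

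The samples carried the markers of macrophages and few of those that define dendritic cells. Of 13 dendritic cell lineage markers, all were listed and 6 could be tested. Several that define the lineage were near 0 TPM, as means over transcripts, which lower genes with many of them. Flt3 was at most 0.0625 TPM, Zbtb46 at most 0.236 and Clec9a at most 0.0751. Siglech was at most 0.0481 TPM, Cd209a at most 0.0413 and Dpp4 at most 0.122. The summed level of the 13 was 28.9 to 32.3 TPM in WT UT, 9.67 to 19.3 in WT LPS, 24.7 to 28.2 in cGAS-/- UT and 12.7 to 15.7 in cGAS-/- LPS, and most of it was Irf8 and Itgax, which macrophages express too. With LPS, Itgax, the integrin known as CD11c, fell by 2.17 on the log2 scale in WT (limma, SE 0.26, adjusted p = 1.76e-04). Xcr1, the chemokine receptor of cross-presenting dendritic cells, was higher with LPS, at 0.0958 ± 0.073 TPM in WT UT, 1.37 ± 0.68 in WT LPS, 0.0538 ± 0.060 in cGAS-/- UT and 0.699 ± 0.24 in cGAS-/- LPS (SD, n = 3), and it reached the minimum for a test through the LPS samples alone. Ly75 too reached it only with the cGAS-/- LPS samples, so these rises were partly set by the filter. Of the 6 tested markers 1 was past the adjusted p as higher and 3 as lower in WT LPS against UT, and 2 (Xcr1 and Ly75) and 1 in cGAS-/- cells (limma), beside 4.31% and 23.3% of all genes in WT and 4.76% and 9.06% in cGAS-/- cells. The 13 listed macrophage markers, all tested, summed to 27135 to 28144 TPM in WT UT, 24991 to 29467 in WT LPS, 28358 to 30845 in cGAS-/- UT and 37426 to 37750 in cGAS-/- LPS. Most of this was Lyz2, a lysozyme, with a mean of 33127 TPM in cGAS-/- LPS and of 16429 to 20266 in the other groups. With LPS 2 of the 13 rose and 4 fell in WT cells (limma), beside 4.31% and 23.3% of all genes. In cGAS-/- cells 4 rose and 6 fell (limma), beside 4.76% and 9.06%. Fcgr1 and Msr1 rose in both genotypes, and Cd68, Ctsd and Mrc1 fell in both. The part of dendritic cells in the members' values was not tested, and the 9 genes are called by their own names below.

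**Figure D1:**
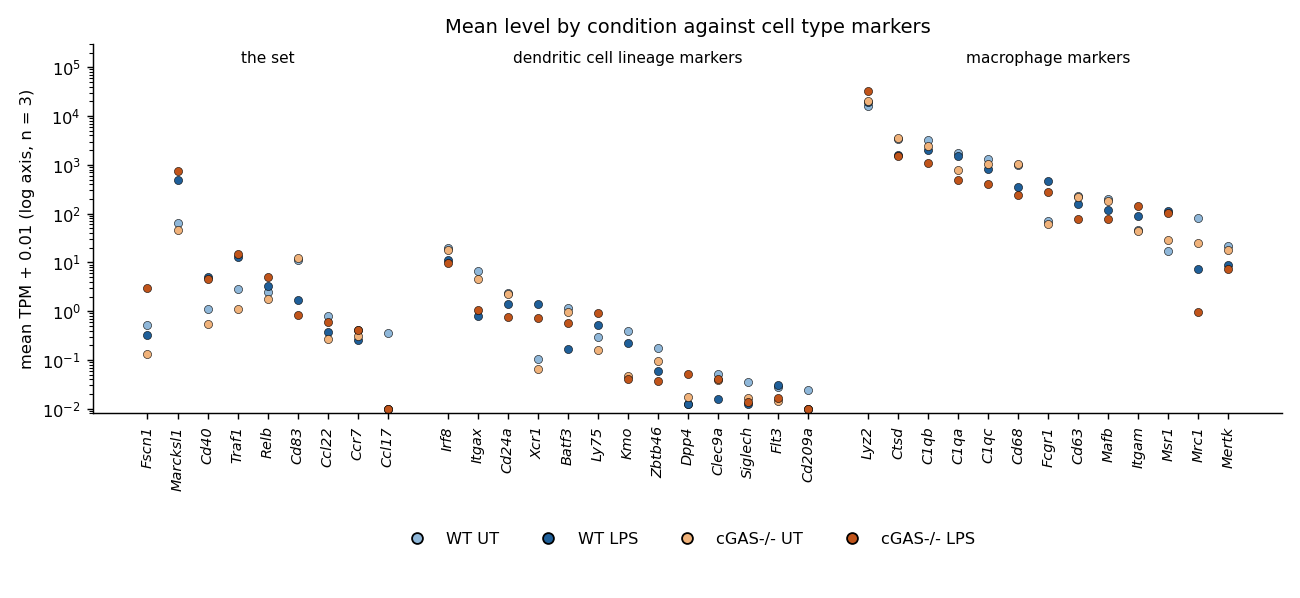
Mean TPM of each gene in the 4 conditions (n = 3, log axis, 0.01 added so that genes at 0 can be drawn), for the 9 genes, for the 13 dendritic cell lineage markers and for the 13 listed macrophage markers. Each gene is to be read across the conditions and not against other genes, and the mark of Fscn1 stands apart in cGAS-/- LPS, at 3.01 TPM.

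Markers of other cells moved between the groups as well, and their part in the members' values was not tested. The 16 listed B cell markers summed to 147 to 169 TPM in WT UT, 43.9 to 77.4 in WT LPS, 52.4 to 67.4 in cGAS-/- UT and 32.0 to 39.6 in cGAS-/- LPS. Igkc, an immunoglobulin light chain, was 81.7 ± 17 TPM in WT UT, 33.1 ± 5.1 in WT LPS, 6.65 ± 3.4 in cGAS-/- UT and 3.89 ± 2.5 in cGAS-/- LPS (SD, n = 3), and in the cGAS-/- groups most of the sum was Cd37, a tetraspanin of leukocytes, at 34.4 ± 3.3 and 29.1 ± 1.6 TPM. Ighm, an immunoglobulin heavy chain, was 38.8 ± 3.5 TPM in WT UT, 3.93 ± 3.0 in WT LPS, 17.7 ± 2.2 in cGAS-/- UT and 0.914 ± 0.46 in cGAS-/- LPS. Cd79a went the other way with LPS in WT cells, from 0.699 ± 0.75 to 1.91 ± 0.51 TPM. The defining marker Pax5 was at most 0.0221 TPM in any sample, as a mean over its transcripts. The 13 T and NK cell markers summed to at most 1.72 TPM and none could be tested. The 10 listed neutrophil markers summed to 162 to 241 TPM in WT UT, 109 to 500.5 in WT LPS, 68.3 to 153 in cGAS-/- UT and 421 to 472 in cGAS-/- LPS. Lcn2, the iron-binding lipocalin that macrophages also make, gave most of the last sum, with 5.03 ± 4.8 TPM in cGAS-/- UT and 363 ± 15 in cGAS-/- LPS (SD, n = 3). Of the 8 tested neutrophil markers 3 rose there and 0 fell (limma), beside 4.76% and 9.06% of all genes. The 3 were Lcn2, Camp (0.217 to 3.89 TPM) and Mmp8 (15.3 to 31.1 TPM). S100a8 and S100a9 stood at 33.1 and 49.3 TPM in cGAS-/- UT and at 26.4 and 21.3 in cGAS-/- LPS. In WT cells 1 rose with LPS (Lcn2) and 3 fell (Elane, Ltf and Ngp, limma), beside 4.31% and 23.3%. Elane and Ltf reached the minimum for a test only with the WT UT samples, so their fall was partly set by the filter.

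Cd40 (chr2:164897544-164914868, plus strand) was higher with LPS in both genotypes. It measured 1.49, 1.00 and 0.835 TPM in WT UT against 5.66, 7.61 and 1.56 in WT LPS. Without cGAS it measured 0.648, 0.416 and 0.511 TPM without LPS and 5.01, 4.40 and 4.26 with it. The LPS samples lay above the UT samples in each genotype without overlap, by a small margin in WT LPS replicate 3. The ratio of the means was 4.45 in WT and 8.68 in cGAS-/- cells. In WT cells the log2 difference was 1.33 (limma over all genes, SE 0.36, adjusted p = 0.0205). This call ended without WT UT replicate 2 (adjusted p = 0.0647 in limma), WT UT replicate 3 (0.0712) or WT LPS replicate 1 (0.0551), and in the fit of the 6 WT samples alone (0.126).

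Cd83 (chr13:43938251-43956634, plus strand), a common surface mark of mature dendritic cells, moved the other way. It measured 10.3, 12.4 and 11.3 TPM in WT UT and 1.78, 2.93 and 0.351 in WT LPS. The cGAS-/- samples followed the same course, from 13.7, 12.9 and 11.1 TPM to 1.20, 0.741 and 0.475. Each LPS sample lay far under each UT sample of its genotype. The LPS mean was 0.149 of the UT mean in WT and 0.0642 of it in cGAS-/- cells. In WT cells Cd83 fell by 2.33 on the log2 scale (limma, SE 0.34, adjusted p = 6.48e-04). Its fall lay within 2 under TMM factors (-1.91), under quantile normalization (-1.87) and without WT LPS replicate 3 (-1.90).

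Traf1 (chr2:34831762-34851837, minus strand), an adaptor of TNF receptor family signalling, rose with LPS. It measured 2.34, 3.47 and 2.57 TPM in WT UT and 7.45, 11.1 and 19.3 in WT LPS. The cGAS-/- samples measured 1.18, 0.969 and 1.11 TPM without LPS and 14.8, 15.9 and 14.2 with it. No LPS sample overlapped a UT sample of its genotype. WT LPS replicate 3, low for the other members, was the highest of all samples for Traf1. The ratio of the means was 4.53 in WT and 13.8 in cGAS-/- cells, and the log2 difference in WT cells was 1.76 (limma over all genes, SE 0.29, adjusted p = 0.00132).

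Relb (chr7:19339017-19363425, minus strand), the NF-κB subunit of the alternative pathway, was less even. It measured 2.52, 2.85 and 2.02 TPM in WT UT and 3.62, 5.07 and 0.908 in WT LPS. Of the WT LPS samples 2 lay above and 1 lay below all WT UT samples. In cGAS-/- cells it went from 1.78, 1.91 and 1.67 TPM to 5.31, 4.85 and 4.89 without overlap, a ratio of 2.81. In WT cells the log2 difference was 0.13 (limma over all genes, SE 0.34, adjusted p = 0.792). WT LPS replicate 3 decided this value, since the difference was 0.62 when it was left out (limma, adjusted p = 0.0114) and -0.21 when WT LPS replicate 2 was (limma, adjusted p = 0.582).

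The wider CD40, TRAF and RelB pathway was followed in 24 listed and tested genes of 30. In WT cells, 4 rose with LPS and 2 fell at an adjusted p under 0.05 in limma, beside 4.31% and 23.3% of all genes tested. At an unadjusted p under 0.05 in limma 5 were higher and 5 lower. Nfkbia, the inhibitor that NF-κB itself switches on, rose from 31.9 ± 4.0 to 122 ± 31 TPM (SD, n = 3), by 1.87 on the log2 scale (limma, SE 0.25, adjusted p = 3.27e-04). Birc3, a ubiquitin ligase bound to the TRAF complex, rose from 7.73 ± 0.68 to 16.0 ± 6.6 TPM, by 0.90 (limma, SE 0.26, adjusted p = 0.0260). In cGAS-/- cells 8 of the 24 rose and 0 fell in limma, beside 4.76% and 9.06% of all genes, and the unadjusted counts were also 8 and 0. There Nfkbia reached 214 ± 2.2 TPM, a log2 rise of 2.73 (limma, adjusted p = 2.72e-05), and Birc3 reached 34.6 ± 0.44 TPM, a rise of 2.41 (limma, adjusted p = 9.50e-05). Tnip1, a partner of the NF-κB inhibitor A20, rose by 2.12 in cGAS-/- cells (limma, adjusted p = 0.00315), and its WT difference of 0.74 did not pass (limma, adjusted p = 0.159). The median log2 difference of the 24 genes was -0.36 in WT and 0.20 in cGAS-/- cells, beside -0.46 and -0.20 over all genes tested.

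Fscn1 (chr5:142946098-142958953, plus strand), the actin bundler of dendritic cell processes, was under 1 TPM in all but 1 condition. Its value is a mean that appears to run over 7 transcripts, so the summed level of the gene is higher. It measured 0.290, 0.653 and 0.619 TPM in WT UT and 0.452, 0.436 and 0.0669 in WT LPS. In cGAS-/- UT it measured 0.0927, 0.163 and 0.121 TPM, below all WT UT samples, and in cGAS-/- LPS it measured 2.84, 3.02 and 3.16. The 3 cGAS-/- LPS samples lay above the other 9 samples and close to each other. In WT cells the LPS and UT samples overlapped, and the log2 difference was -0.21 (limma over all genes, SE 0.17, adjusted p = 0.356). In cGAS-/- cells the ratio of the means was 23.96 and the log2 difference 1.83, which understates a gene as low as this because 1 is added to each value. The mean in cGAS-/- LPS was 3.01 ± 0.16 TPM (SD, n = 3), against 0.520 ± 0.20 in WT UT.

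Marcksl1 (chr4:129406288-129409778, plus strand), a substrate of protein kinase C at the membrane that binds actin, rose with LPS. It measured 66.5, 60.4 and 65.2 TPM in WT UT and 578, 585 and 300.3 in WT LPS. Without cGAS it went from 45.9, 48.5 and 41.0 TPM to 767, 743 and 734. The LPS samples stood well above the UT samples in both genotypes, and the cGAS-/- LPS samples lay above all WT LPS samples. The ratio of the means was 7.61 in WT and 16.6 in cGAS-/- cells. In WT cells Marcksl1 rose by 2.85 on the log2 scale (limma over all genes, SE 0.27, adjusted p = 3.27e-05). A stretch of 756 bases, 48.6% of a Marcksl1 transcript of 1555 bases, is 96.8% identical to Gtsf2, which is not analysed here, so reads of the pair could be shared.

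**Figure D2:**
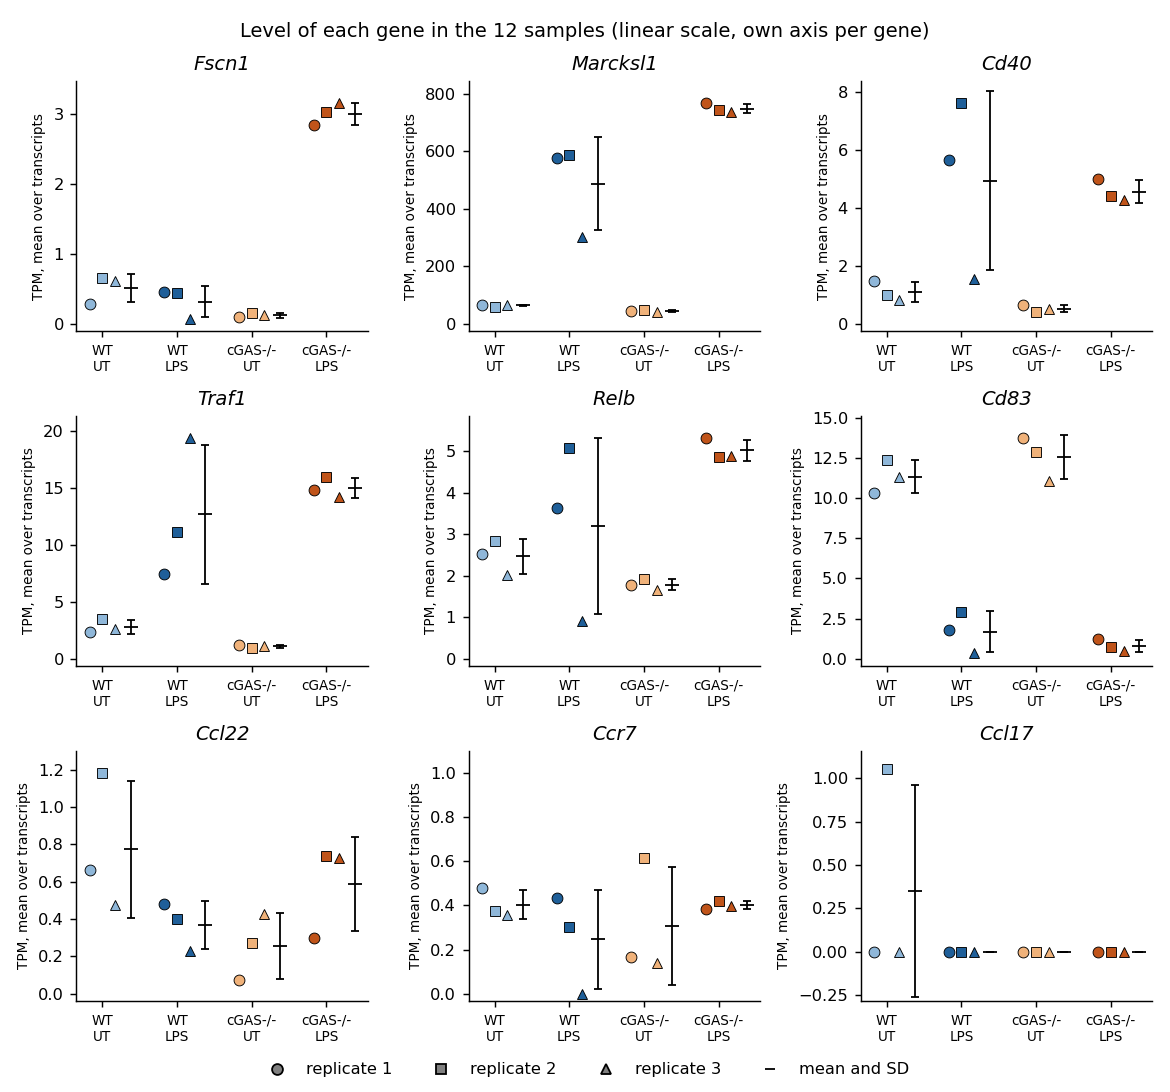
TPM of the 9 genes in each of the 12 samples on a linear scale, with an axis for each gene, the replicate number as the symbol and the mean with its SD beside each condition. Fscn1 stands out in cGAS-/- LPS between 2.84 and 3.16 TPM, Cd83 drops with LPS in both genotypes, and the triangle of WT LPS replicate 3 lies under its fellows for Marcksl1, Cd40 and Relb and above them for Traf1.

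Among other genes of actin bundling and cell movement, none passed the test as higher with LPS. Of 36 such genes 24 were listed and tested. In WT cells 0 of them rose and 7 fell at an adjusted p under 0.05 in limma, beside 4.31% and 23.3% of all genes tested, and at an unadjusted p under 0.05 in limma 0 were higher and 10 lower. In cGAS-/- cells 0 rose and 5 fell in limma, beside 4.76% and 9.06%, and the unadjusted counts were also 0 and 5. Lsp1, an actin-binding protein of leukocytes, fell from 12.7 ± 2.4 to 0.929 ± 0.77 TPM in WT cells (SD, n = 3), by 2.91 on the log2 scale (limma, SE 0.29, adjusted p = 5.41e-05). Actn1, the cross-linker alpha-actinin, fell from 23.6 ± 1.1 to 5.02 ± 0.75 TPM, by 2.04 (limma, SE 0.19, adjusted p = 3.18e-05). Marcksl1 rose in the same samples in which Lsp1 and Actn1 fell.

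In WT cells, LPS moved 2 of the 7 tested members past both thresholds, an adjusted p under 0.05 in limma and a log2 difference beyond 2 in either direction. They were Marcksl1, which rose, and Cd83, which fell, beside 4.32% of all genes tested. The count was 1 without WT LPS replicate 3 (441 of 11742 genes), and it was 3 without WT LPS replicate 1 (609 of 11723 genes), when Traf1 reached 2.06. At an adjusted p under 0.05 alone, 3 members rose (Marcksl1, Traf1 and Cd40) where 4.31% of all genes did, and 1 fell where 23.3% did. The median log2 difference of the 7 was 0.13, against -0.46 over all genes tested. That shift of all genes came to -0.09 with TMM factors, and with those factors the members kept their directions, with Marcksl1 at 3.54, Traf1 at 2.37, Cd40 at 1.78, Relb at 0.58, Ccl22 at -0.13, Fscn1 at -0.07 and Cd83 at -1.91, while quantile normalization turned Fscn1 to 0.21 and Ccl22 to 0.10. The split of the genes past the adjusted p was 512 higher and 2774 lower, and 921 and 1458 with TMM factors.

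Before LPS, the values of most members lay lower in cGAS-/- than in WT cells, and none passed the test. For Traf1, Marcksl1, Cd40, Fscn1 and Relb, 5 of the 7 tested members, each cGAS-/- UT sample lay below each WT UT sample, an order that 18.4% of all genes tested showed. Ccl22 had the same order, which was partly set by the filter. The differences on the log2 scale were -0.85 for Traf1 (SE 0.29), -0.50 for Marcksl1 (SE 0.27), -0.49 for Ccl22 (SE 0.20), -0.46 for Cd40 (SE 0.36), -0.43 for Fscn1 (SE 0.17) and -0.31 for Relb (SE 0.34), and Cd83 was at 0.14 (SE 0.34). As ratios of the means, cGAS-/- UT stood at 0.389 of WT UT for Traf1, 0.705 for Marcksl1, 0.473 for Cd40, 0.726 for Relb and 0.241 for Fscn1. In limma 0 members passed both thresholds, where 0.37% of all genes did, and the smallest adjusted p was 0.281, for Traf1. At an adjusted p under 0.05 alone the member counts were 0 higher and 0 lower, against 0.252% and 1.58% of all genes, and at an unadjusted p under 0.05 in limma they were 0 and 3, with Ccl22 among the 3. Leaving out WT LPS replicate 3, which lends its spread to this comparison although it is not part of it, brought Marcksl1 (adjusted p = 0.00704 in limma) and Traf1 (0.0121) past the threshold, together with 503 of 11742 genes as lower, against 188 of 11887 with all samples. The fit of the 6 UT samples alone did the same, at 0.0109 for Marcksl1 and 0.0121 for Traf1 in limma, and put 858 of 10745 genes past it as lower. The same UT samples differed in their summed B cell markers, at 147 to 169 TPM in WT against 52.4 to 67.4 in cGAS-/-, and in their summed neutrophil markers, at 162 to 241 against 68.3 to 153. Of the 8 tested neutrophil markers 3 were lower in cGAS-/- UT (limma), with Ngp at 24.1 to 32.3 TPM in WT and 0.657 to 3.13 in cGAS-/-, while the other two, Elane and Ltf, reached the minimum only with the WT UT samples. The part of these cells in the members' differences was not tested.

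The comparisons that hold the cGAS-/- LPS samples are given as descriptions, without a p for the members, because the members were chosen from earlier results in which those samples had been seen. Fscn1 was, besides, tested only through them. The counts of members called are therefore printed beside the shares over all genes with nothing read from them. Within cGAS-/- cells, LPS moved 3 members past both thresholds, Marcksl1 at 4.02 (SE 0.27), Traf1 at 2.93 (SE 0.29) and Cd83 at -2.92 (SE 0.34) on the log2 scale, beside 3.5% of all genes. By adjusted p alone 4 were higher (with Fscn1 at 1.83 and Cd40 at 1.87) and 1 lower, beside 4.76% and 9.06% of all genes. The median of the 7 was 1.83, against -0.20 over all genes, a shift that was -0.02 with TMM factors. With a pseudocount of 0.1 the count past both thresholds was 5, beside 776 of 11887 genes. With a pseudocount of 5 it was 1, beside 179 of 11887 genes. The 3 cGAS-/- LPS samples lay close together for each member except the low Ccl22 and Cd83.

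**Figure D3:**
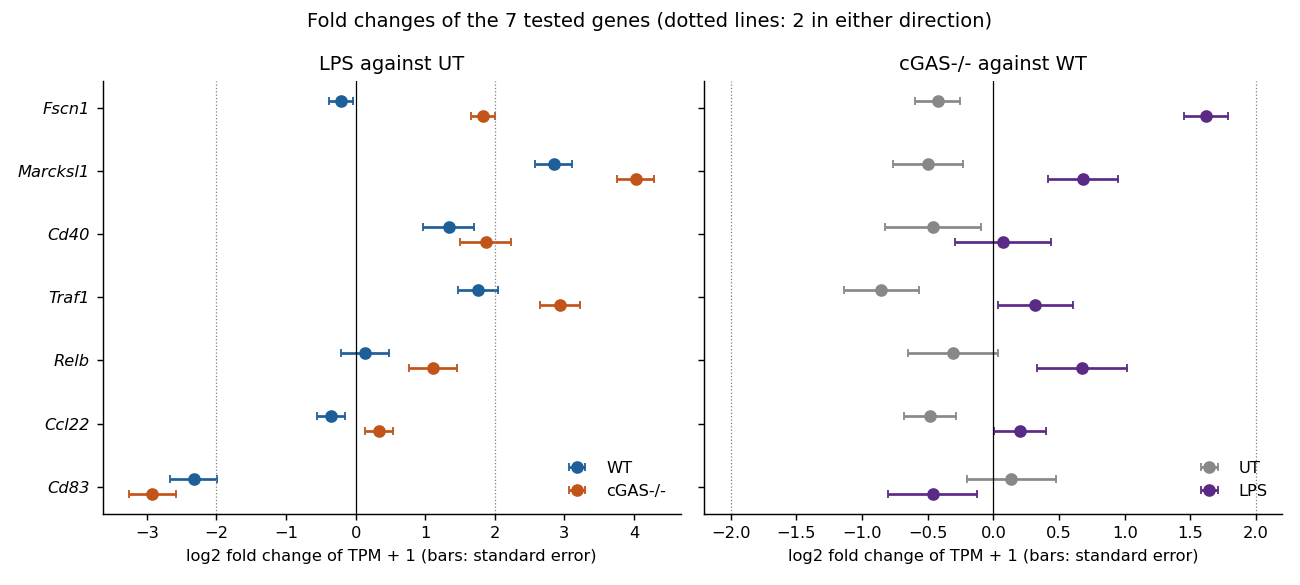
Log2 fold changes of TPM + 1 with standard errors for the 7 tested genes, LPS against UT in each genotype on the left and cGAS-/- against WT in each treatment on the right, with dotted lines at 2 in either direction. In the left panel the cGAS-/- points lie to the right of the WT points for each gene but Cd83. In the right panel the UT points lie to the left of 0 for each gene but Cd83.

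Between the genotypes after LPS, Fscn1 and Marcksl1 were the members whose cGAS-/- samples lay above all WT samples, an order that 12.6% of all genes showed. The log2 difference was 1.62 for Fscn1 (SE 0.17), a ratio of the means of 9.45, and 0.68 for Marcksl1 (SE 0.27), a ratio of 1.53. Relb at 0.67, Traf1 at 0.32, Ccl22 at 0.20, Cd40 at 0.07 and Cd83 at -0.46 overlapped between the genotypes. Both thresholds were passed by 0 members (2 were past an unadjusted p under 0.05 in limma) and by 0.614% of all genes. By adjusted p alone 1 member was higher and 0 were lower, beside 1.36% and 1% of all genes. In either direction, 0 members and 26 of 9631 genes were past it in the fit of the 6 LPS samples alone, 3 members and 3315 of 11644 genes when the second WT LPS sample was left out, and 3 members and 971 of 11742 genes when the third was. The median of the 7 was 0.32, against 0.20 over all genes, a shift that was 0.04 with TMM factors, which turned Cd40 to -0.19 and Traf1 to -0.042. The values moved with single WT LPS samples. Without replicate 3 the difference was 1.47 for Fscn1, 0.36 for Marcksl1, 0.18 for Relb, 0.65 for Traf1, -0.45 for Cd40 and -0.89 for Cd83, so the direction of Cd40 turned, and it was 0.13 for Ccl22. Without replicate 2 it was 1.02 for Relb, 0.43 for Cd40 and -0.12 for Cd83, and without replicate 1 it was 0.020 for Traf1. Ccl22 was at 0.34 without cGAS-/- LPS replicate 1.

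The difference of the LPS effects, cGAS-/- minus WT, was 2.04 on the log2 scale for Fscn1 (SE 0.24). It was 1.18 for Marcksl1 (SE 0.38), 1.17 for Traf1 (SE 0.41), 0.98 for Relb (SE 0.49), 0.69 for Ccl22 (SE 0.28), 0.53 for Cd40 (SE 0.51) and -0.60 for Cd83 (SE 0.48). The value was above 0 for 6 of the 7, with a median of 0.98 against 0.27 over all genes. WT LPS replicates 2 and 3 bear on several of these values. Without replicate 3 the difference was 0.011 for Cd40, 0.49 for Relb and -1.03 for Cd83, and without replicate 2 it was 0.89, 1.33 and -0.26. Each value is the genotype difference after LPS minus the genotype difference in UT cells, for Traf1 0.32 minus -0.85. Past both thresholds stood 1 member, Fscn1, beside 0.404% of all genes, and past the adjusted p alone 1 higher and 0 lower, beside 0.732% and 0.168%. Nothing is read from these counts, since Fscn1 entered the test only through the cGAS-/- LPS samples. Fscn1 lay just past the threshold of 2, and it was 1.97 under TMM factors, 1.71 under quantile normalization, 1.90 when WT LPS replicate 3 was left out, and 1.98 and 1.99 without WT UT replicates 2 and 3 in turn. Leaving out WT LPS replicate 2 put 2 members and 1523 of 11644 genes past the adjusted p alone, and leaving out the third WT LPS sample put 3 members and 536 of 11742 genes there, against 1 member and 107 of 11887 genes with all samples.

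**Figure D4:**
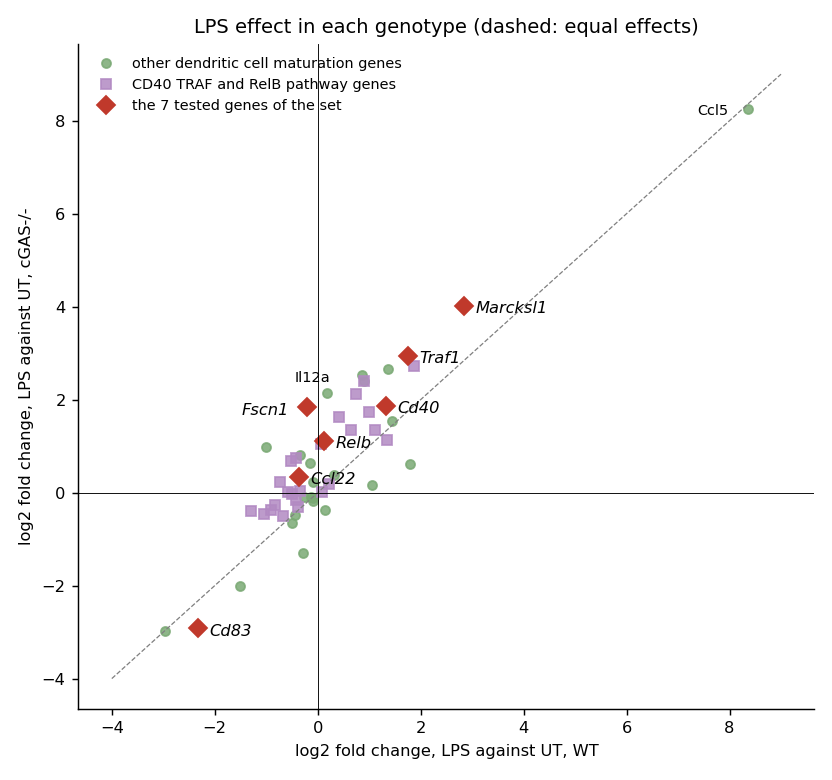
Log2 fold change of LPS against UT in WT cells (horizontal axis) and in cGAS-/- cells (vertical axis) for the 7 tested members (diamonds), 23 other dendritic cell maturation genes (circles) and 24 genes of the CD40, TRAF and RelB pathway (squares). Fscn1 at -0.21 and 1.83 lies farthest above the line of equal effects among the members, and Cd83 at -2.33 and -2.92 is the member below it.

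Further genes of the dendritic cell maturation programme moved in both directions with LPS. Of 42 such genes 29 were listed and 23 tested. In WT cells 7 rose and 2 fell with LPS in limma, beside 4.31% and 23.3% of all genes, and in cGAS-/- cells 7 rose and 2 fell, beside 4.76% and 9.06%. The counts of risen genes include Adora2a and Il15ra in WT and Adora2a and Il12a in cGAS-/- cells, which reached the minimum for a test only through LPS samples, so their rise was partly set by the filter. Ccl5, a chemokine of NF-κB and IRF signalling, rose from 20.0 ± 5.7 to 7265 ± 3278 TPM in WT cells (SD, n = 3) and from 21.7 ± 11 to 6413 ± 141 in cGAS-/- cells. Its log2 rise was 8.36 in WT (limma, SE 0.40, adjusted p = 8.02e-07) and 8.24 in cGAS-/- cells (limma, adjusted p = 4.69e-07). Icam1, the adhesion partner of T cell integrins, rose by 1.37 in WT (limma, SE 0.38, adjusted p = 0.0222) and by 2.66 in cGAS-/- cells (limma, adjusted p = 6.92e-04). Serpinb6b, a serine protease inhibitor, fell by 2.96 in WT (limma, SE 0.31, adjusted p = 7.59e-05) and fell by 2.98 in cGAS-/- cells (limma, adjusted p = 7.85e-05). The median of the 23 was -0.09 in WT and 0.24 in cGAS-/- cells.

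Il12a, the p35 subunit of IL-12, had a course like that of Fscn1. It was at most 0.293 TPM in the 9 samples outside cGAS-/- LPS and 3.58 ± 0.81 TPM there (SD, n = 3), and like Fscn1 it reached the minimum for a test only through those samples. Its log2 difference between the genotypes after LPS was 1.95 (SE 0.17) and its difference of LPS effects was 1.96 (SE 0.24), given without a p for that reason. Adora2a, a receptor of adenosine, rose from 0.252 ± 0.33 to 1.32 ± 0.86 TPM in WT and from 0.0483 ± 0.020 to 5.09 ± 0.30 TPM in cGAS-/- cells. After LPS it was higher in cGAS-/- cells by 1.45 (limma, SE 0.25, adjusted p = 0.0135), while its difference of LPS effects, 1.68, did not pass (limma, adjusted p = 0.0572). Birc3 was also higher in cGAS-/- LPS, by 1.13 (limma, SE 0.26, adjusted p = 0.0493). Il15ra went the other way, at -1.13 (limma, SE 0.25, adjusted p = 0.0412). Of the 23 tested maturation genes 5, with Il12a among them, were higher and 1 was lower (limma), beside 1.36% and 1% of all genes. The median of the 23 was -0.002. Adora2a and Birc3 are named because they passed both thresholds in cGAS-/- cells with LPS, so these p-values share samples with that choice.

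Genes of the IL-4 and STAT6 response were followed because CCL17 and CCL22 are also products of alternatively activated macrophages. Of 18 such genes 16 were listed and 12 tested. With LPS 3 rose and 5 fell in WT cells (limma), beside 4.31% and 23.3% of all genes. In cGAS-/- cells 3 rose and 4 fell (limma), beside 4.76% and 9.06%. The risen genes were Arg1, Il1rn and Il4ra in both genotypes. Arg1 rose by 4.94 in WT (limma, SE 0.44, adjusted p = 2.46e-05) and by 5.53 in cGAS-/- cells. Il1rn rose by 4.08 in WT (limma, SE 0.38, adjusted p = 3.36e-05) and by 3.14 in cGAS-/- cells. After LPS 0 of the 12 were higher and 2 lower in cGAS-/- cells (limma), beside 1.36% and 1% of all genes. The 2 were Il1rn and Mrc1, and Arg1 was at -0.06. Mrc1, the mannose receptor, fell from 80.9 ± 6.6 to 7.20 ± 3.5 TPM in WT cells (SD, n = 3), by 3.41 (limma, SE 0.29, adjusted p = 1.89e-05), and Pparg fell by 2.68 (limma, SE 0.22, adjusted p = 1.47e-05). In UT cells 0 of these genes were higher and 3 lower in cGAS-/- (limma, 1 and 4 at an unadjusted p under 0.05), beside 0.252% and 1.58% of all genes, among them Mrc1 by -1.68 (limma, adjusted p = 0.0121) and Chil3 by -1.82 (limma, adjusted p = 0.00660). The remaining one, Clec10a, also counted among the 5 that fell with LPS in WT cells, reached the minimum only with the WT UT samples, so its lower value was partly set by the filter. Ccl17 and Ccl22 were thus near 0 TPM in cells in which other genes of this response were expressed.

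The members differed in how they varied over the 12 samples, given here as a description over libraries that all genes share. Marcksl1 followed Cd40 (Pearson's r = 0.94 on log2 of TPM + 1) and Traf1 (r = 0.93), and Cd83 ran opposite to Traf1 (r = -0.95) and Marcksl1 (r = -0.93). Relb followed Cd40 (r = 0.83) more than Traf1 (r = 0.52). Ccl22 was close to unrelated to Marcksl1 (r = 0.09). The mean z-score of the 7 tested members was followed over the 12 samples by Fcgr2b, an inhibitory Fc receptor (r = 0.97), Igsf6 (r = 0.97), Nadk, a kinase of NAD (r = 0.96), Gm29408 (r = 0.96) and Sdc1, the proteoglycan syndecan (r = 0.96). Fcgr2b went from 8.31, 9.89 and 8.83 TPM in WT UT to 25.6, 31.1 and 8.87 in WT LPS, and from 3.53, 3.89 and 4.21 in cGAS-/- UT to 45.6, 43.3 and 44.7 in cGAS-/- LPS. It had the traits seen in Cd40 and Relb, low in WT LPS replicate 3 and high and even in cGAS-/- LPS.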

How the data were processed

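RNA of 12 BMDM samples was sequenced, 3 for each genotype and treatment, as given by the labels. Per the labels and the methods, the authors used fastp, STAR and kallisto with the genome GRCm39. The deposited values were taken as TPM, averaged by the authors over the transcripts of a symbol. No source names this unit, which was read from the values. Depth is unknown, no counting interval is given, and the precision rests on the 3 samples of a group.

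Genes with at least 1 TPM, after each sample was rescaled to 1000000 for this filter only, in at least 3 samples were kept, which left 11887 of 38739. Values were taken as log2(TPM + 1), a scale that understates the change of low genes. All 12 samples entered one fit of limma 3.58.1 (R 4.3.3), with a coefficient per condition and a variance trend, with Benjamini-Hochberg adjustment over all genes tested. Members were called at an adjusted p under 0.05 and a log2 difference beyond 2, the thresholds of the methods. Group values are means with SD.

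The members, the gene lists and the tests were chosen with earlier results of these data known. All members are named, with the 5 genes most like the members. From each list, genes past both thresholds in any comparison were taken first, at most 6 by size. Of other list genes counts are given. Some of these are also named, where they enter a count, carry a sum or define a cell type. The labels give no batch. Member positions are of GENCODE on GRCm39 and promoters of RefSeq on GRCm38.p6. Member transcripts were compared with all transcripts by blastn 2.17.0, at 95% identity over at least 200 bases.

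The alternatives tried were a pseudocount of 0.1 or 5, a filter of 5 TPM or none, TMM factors (computed from the TPM values), quantile normalization, a common total of protein-coding genes, the 6 samples compared, a replicate block, no trend, sample weights and each sample left out. No tool for counts was used for tests, because the values are not counts. Same-numbered samples did not deviate together (18 pairs, correlations from -0.031 to 0.038), so numbers were not taken as pairs.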

Additional observations from a re-analysis of the deposited data

Results flagged for a closer look

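The LPS effect on Fscn1 differed between the genotypes by 2.04 on the log2 scale of TPM + 1 (cGAS-/- minus WT, standard error 0.24), which is what marked it for a closer look. The mean went from 0.126 to 3.01 TPM with LPS in cGAS-/- cells and from 0.520 to 0.318 TPM in WT cells. The gene entered the test only through the cGAS-/- LPS samples, and it was chosen with those samples known, so the difference is a description and carries no p here.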

How the results depend on the processing

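Of 789 member fold changes under 23 alternative settings, 745 kept their direction and their side of the adjusted p threshold, 28 passed it newly, 5 no longer passed and 11 changed direction. The count of members past both thresholds was 1 in WT LPS against UT with a pseudocount of 5, beside 173 of 11887 genes. It ran from 1 (441 of 11742 genes, without WT LPS replicate 3) to 3 (609 of 11723 genes, without WT LPS replicate 1) when single samples were left out. In cGAS-/- cells it was 5 with a pseudocount of 0.1 (776 of 11887 genes) and 1 with a pseudocount of 5 (179 of 11887 genes). Between the genotypes after LPS it was 1 with a pseudocount of 0.1, beside 117 of 11887 genes. For the difference of LPS effects it was 0 with a pseudocount of 5 (24 of 11887 genes), TMM factors (46), quantile normalization (48), the protein-coding total (54) and sample weights (61). It ranged from 0 to 1 when single samples were left out. The count was 0 without WT UT replicate 2 (28 of 11576 genes), WT UT replicate 3 (29 of 11612) or WT LPS replicate 3 (77 of 11742). Quantile normalization turned the WT LPS difference of Ccl22 to 0.10 and that of Fscn1 to 0.21. Relb in WT LPS ranged from -0.21 to 0.62 over the samples left out, with -0.019 without WT LPS replicate 1. Cd40 after LPS, cGAS-/- against WT, was -0.0058 with a pseudocount of 5, -0.19 with TMM factors, -0.19 with quantile normalization, -0.057 with the protein-coding total, -0.28 with sample weights, and from -0.45 to 0.43 over the samples left out. Traf1 there was -0.042 with TMM factors. The causes were not tested.

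Counts over all genes moved by more than 1.5 times too. Past both thresholds, WT LPS against UT had 514 genes, 1415 with a pseudocount of 0.1, 173 with one of 5 and 825 without WT LPS replicate 2. LPS against UT in cGAS-/- cells had 416 genes, and 776 and 179 with pseudocounts of 0.1 and 5. The UT genotypes differed in 44 genes, and in 75 and 18 with these pseudocounts. After LPS they differed in 73 genes, 22 in the 6 samples compared and 214 without WT LPS replicate 2. The difference of LPS effects had 48 genes, 24 with a pseudocount of 5 and 215 without WT LPS replicate 2. The fit of only the samples compared was not possible for the difference of LPS effects, which needs all 12. A replicate block gave 0 called members between the UT genotypes, 2 in WT LPS, 3 in cGAS-/- LPS, 0 between the genotypes after LPS and 1 for the difference of LPS effects. Beside them stood 44, 515, 415, 64 and 37 of 11887 genes in the same order. The block changed no call of a member. The unknown depth limits the values under 1 TPM of Ccr7, Ccl17, Ccl22 and Fscn1.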
